A study of Mus musculus with 12 samples.

Results

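The expression of 9 genes that mark arterial or venous identity in blood vessels was followed in cerebral vessels isolated from mice after a systemic injection of lipopolysaccharide (LPS), the endotoxin of Gram-negative bacteria. The genes were taken by name, as known markers of either identity: 7 arterial genes (Efnb2, Gja4, Gja5, Sema3g, Bmx, Gkn3 and Hey2) and 2 venous genes (Nr2f2 and Ephb4). Each symbol matched 1 gene of the GRCm38 annotation, and all 9 were among the 19150 genes with enough reads to be tested, out of 54119 genes summed. The mice were wild type C57BL6 animals of 2 to 3 months, given 10 mg/kg LPS into the peritoneum and killed 15 min, 30 min or 4 h later, or given phosphate buffered saline (PBS). When the animals given PBS were killed is not given in the sources used here. Each of the 4 groups had 3 libraries, and each library pooled the vessels of 1 male and 1 female, so that 6 mice stood behind a group and the sexes could not be separated. The vessels were freed from the forebrain by homogenization, a dextran gradient and a mesh, so that arteries, capillaries and veins entered 1 RNA sample together with the mural and other cells attached to them.

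Blood vessels of the brain run from arteries and arterioles through capillaries to venules and veins, and the endothelial cells along this axis differ in the genes they express. Ephrin-B2 (Efnb2), a membrane-bound ligand of arterial endothelium, and its receptor EphB4 (Ephb4) of venous endothelium form the classical pair that separates both identities, with signals running into either cell. On the arterial side, VEGF and Notch signaling turn on transcriptional repressors of the Hey family, Hey2 among them, and on the venous side the nuclear receptor COUP-TFII (Nr2f2) holds Notch signaling down. Gja4 and Gja5 encode connexin 37 and connexin 40, the gap junction channels that couple arterial endothelial cells. Sema3g encodes a secreted class 3 semaphorin, Bmx a non-receptor tyrosine kinase of the Tec family, and Gkn3 a gastrokine known in the brain as an arterial marker.

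The libraries held between 18309177 and 25882028 fragments assigned to transcripts. Levels are given below as CPM, counts brought to a common library size with scaling by the trimmed mean of M values (TMM). This scaling assumes that most genes do not change. A gene is said to have risen or fallen where it passed edgeR's test for a change beyond 1.5-fold. The threshold was 0.05 after Benjamini-Hochberg adjustment across the 19150 genes. Libraries of a group lay close together, with a variance between pairs of 2.13 to 2.84 times that of counting alone. The labels name no separate isolations beyond the pools, and the p-values measure the spread between these 3 pools a group. All 10 endothelial markers examined were present in every group, with a summed level of 9779 to 10080 CPM in the PBS libraries, beside 3414 to 3442 CPM for 6 smooth muscle markers, 3516 to 3591 CPM for 6 pericyte markers and 10473 to 10913 CPM for 5 choroid plexus markers.

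At 4 h after LPS, 7 of the 9 zonation genes had fallen and 1 had risen, whereas none passed the test at 15 or 30 min. The arterial genes Gkn3, Bmx, Sema3g, Gja5, Hey2 and Efnb2 and the venous receptor gene Ephb4 fell, by log2 fold changes between -1.14 and -2.72, and the arterial connexin gene Gja4 rose by 1.30. Nr2f2 had a log2 fold change of -0.60, which did not pass the test. The share of all tested genes that passed at 4 h was 32.8%, with 13.8% lower and 19% higher. The median log2 fold change of the 9 genes was -1.39, against -0.01 over all genes tested. The RNA came from whole vessels, where a loss of cells of a type and a loss of RNA per cell cannot be told apart.

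**Figure D1:**
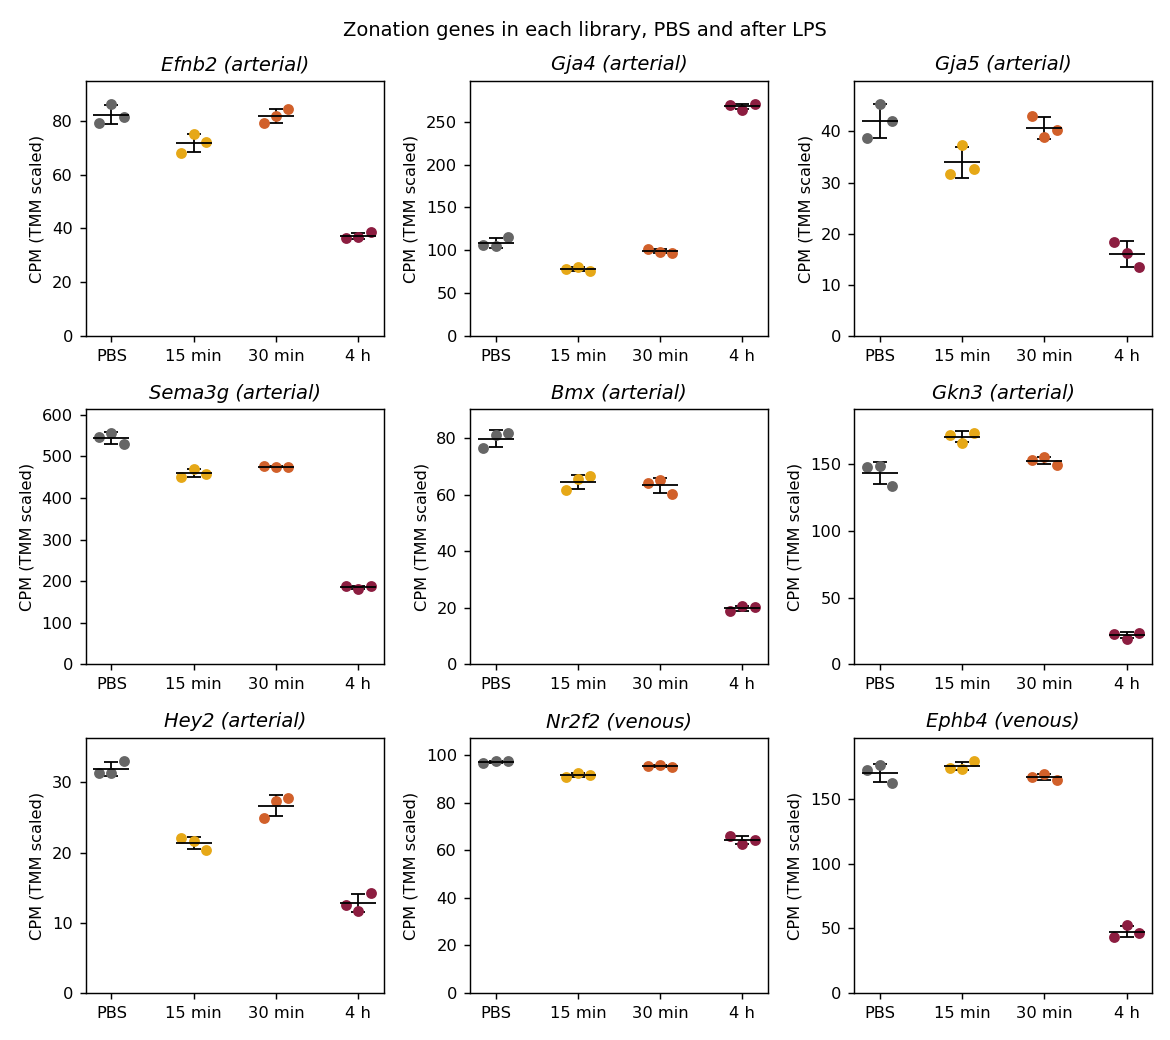
Level of each zonation gene in TMM-scaled CPM (vertical axes, from 0) in the 3 libraries of each group (points), with the group mean and SD (bars). Each gene except Gja4 was lowest in the 3 libraries taken 4 h after LPS, and Gja4 was highest there.

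The promoters of the genes are shown for Hey2 and Bmx, the pair with a match to a searched motif, for Gkn3, the gene with the largest fall, and for Gja4, the gene that rose. The windows hold the 250 bases before the RefSeq transcription start (GRCm38.p6), written 5′ to 3′ on the strand of the gene: Hey2 at chr10:30842784-30843033 (minus strand), Bmx at chrX:164258194-164258443 (minus), Gkn3 at chr6:87388936-87389185 (minus) and Gja4 at chr4:127314040-127314289 (minus). Capitals mark matches to TGGGAA or its reverse complement, the core of the site of RBPJ, the DNA-binding partner of Notch.
Hey2: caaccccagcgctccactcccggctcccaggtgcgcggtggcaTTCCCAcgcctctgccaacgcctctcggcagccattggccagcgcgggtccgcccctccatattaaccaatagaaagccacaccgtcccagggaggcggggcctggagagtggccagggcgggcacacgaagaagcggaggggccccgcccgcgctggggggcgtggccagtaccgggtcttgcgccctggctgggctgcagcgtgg
Bmx: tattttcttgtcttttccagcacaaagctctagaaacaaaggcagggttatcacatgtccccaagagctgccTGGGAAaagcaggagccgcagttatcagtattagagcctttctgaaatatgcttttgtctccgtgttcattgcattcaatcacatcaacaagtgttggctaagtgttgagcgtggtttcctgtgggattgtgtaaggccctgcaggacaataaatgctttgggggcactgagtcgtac
Gkn3: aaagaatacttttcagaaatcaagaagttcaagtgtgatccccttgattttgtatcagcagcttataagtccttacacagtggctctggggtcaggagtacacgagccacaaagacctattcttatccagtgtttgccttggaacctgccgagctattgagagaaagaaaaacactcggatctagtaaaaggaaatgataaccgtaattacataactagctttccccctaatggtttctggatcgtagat
Gja4: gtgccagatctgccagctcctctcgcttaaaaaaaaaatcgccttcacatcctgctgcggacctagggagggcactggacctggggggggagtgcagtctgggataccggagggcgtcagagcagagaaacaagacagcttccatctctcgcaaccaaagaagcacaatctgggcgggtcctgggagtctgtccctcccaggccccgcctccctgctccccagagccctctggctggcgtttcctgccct

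All 9 genes had a RefSeq window. The RBPJ core TGGGAA, searched on both strands, was found in the windows of Hey2, where it began 207 bases before the start on the opposite strand, and Bmx, where it began 178 bases before the start on the gene's own strand. It was present in 21.6% of all 32851 windows of this length. The E-box CACGTG, a palindrome that Hey repressors and other basic helix-loop-helix factors can bind, was in none of the 9 windows and in 6.02% of all windows. The windows differed in base composition: GC content was 72.0% for Efnb2 and 71.6% for Hey2, 61.2% for Gja4, 45.6% for Bmx and 40.8% for Gkn3, beside a median of 52.4% over all windows. For Nr2f2 the window lies at the start of a minor transcript, since the transcript with most of its reads, Nr2f2-201, starts inside the gene, and it is therefore not shown.

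Among the arterial genes, the ligand gene Efnb2 (chr8:8617434-8661242, minus strand) was 79.3, 86.2 and 81.4 CPM in the PBS libraries and 36.3, 36.7 and 38.7 CPM at 4 h. Every library at 4 h lay below every PBS library. Efnb2 fell by 1.14 on the log2 scale (SE 0.052, adjusted p = 2.07e-10, edgeR). It was 68.2, 75.0 and 72.1 CPM at 15 min, below the PBS libraries, and 79.3, 81.9 and 84.4 CPM at 30 min, where the libraries overlapped with PBS.

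The receptor gene Ephb4 (chr5:137350109-137378669, plus strand) was 172, 176 and 163 CPM in the PBS libraries and 43.6, 52.4 and 46.7 CPM at 4 h. It fell by 1.84 on the log2 scale (SE 0.047, adjusted p = 1.21e-17, edgeR). At 15 min it was 174 to 180 CPM and at 30 min 165 to 170 CPM, and both groups overlapped with PBS. Its coding transcript Ephb4-201 held 90.0% of its TPM, a share of transcripts scaled for their length, in PBS and 93.0% at 4 h. Zan overlaps it on the opposite strand, and the library kit does not mark strand.

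The ratio of Efnb2 to Ephb4 within a library does not depend on how libraries are scaled against each other. Its log2 value, from TPM, was -1.19 ± 0.059 (SD, n = 3) in PBS, -1.44 ± 0.075 at 15 min, -1.12 ± 0.039 at 30 min and -0.47 ± 0.13 at 4 h. Ephb4 thus stayed the higher of the pair per transcript length in all groups. The ratios at 4 h, from -0.62 to -0.39, lay above all others, and those at 15 min, from -1.50 to -1.35, lay below all others, while those at 30 min, from -1.15 to -1.07, lay next to those of PBS, from -1.26 to -1.15. These ratios are descriptions, without a test.

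**Figure D2:**
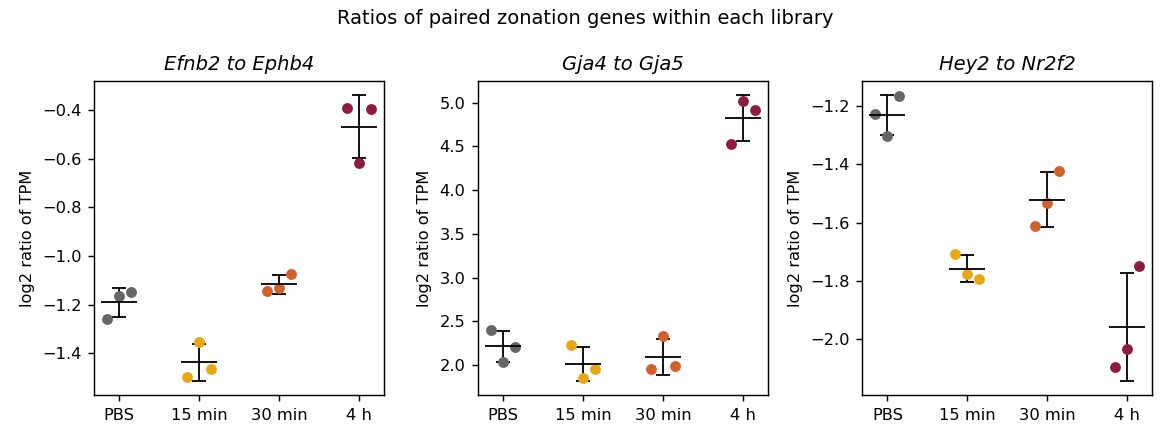
Log2 ratio of the TPM values of 2 genes in each library (points; bars, mean and SD of 3 libraries) for Efnb2 to Ephb4, Gja4 to Gja5 and Hey2 to Nr2f2. The ratio of Gja4 to Gja5 is 4.52 to 5.02 at 4 h against 2.04 to 2.40 in PBS, and that of Hey2 to Nr2f2 is highest in PBS.

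The arterial connexin genes moved apart. Gja4, connexin 37 (chr4:127311421-127314039, minus strand), was 106, 105 and 115 CPM in PBS and 269, 264 and 271 CPM at 4 h, so that it rose 2.47-fold with no overlap of the libraries (log2 1.30, SE 0.036, adjusted p = 1.61e-15, edgeR). At 15 min it was 78.4, 80.2 and 75.4 CPM, below every PBS library, and at 30 min 102, 98.3 and 97.4 CPM. The log2 fold change at 15 min was -0.48 (95% CI -0.55 to -0.40), which is within 1.5-fold. Gja4 has 1 annotated transcript, and no other gene overlaps it.

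Gja5, connexin 40 (chr3:96904693-97077416, plus strand), was 38.7, 45.3 and 42.0 CPM in PBS and 18.4, 16.3 and 13.5 CPM at 4 h. All 3 libraries at 4 h were below PBS, and the gene fell by 1.39 on the log2 scale (SE 0.093, adjusted p = 9.11e-09, edgeR). Its values at 15 min, 31.6, 37.4 and 32.7 CPM, were below the PBS libraries, and those at 30 min, 43.0, 38.9 and 40.2 CPM, overlapped with them. Gja5 had the widest spread of the 9 genes relative to its level at 4 h, 16.1 ± 2.49 CPM (SD, n = 3). The transcript Gja5-201 held 90.2% of its TPM in PBS and 84.0% at 4 h, with most of the rest on the short Gja5-202. Gpr89 and 2 antisense genes lie within its span on the opposite strand, and their reads cannot be told apart by strand. The log2 ratio of Gja4 to Gja5 TPM was 2.21 ± 0.18 in PBS and 4.82 ± 0.26 at 4 h.

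Sema3g (chr14:31217860-31230352, plus strand) had the most reads of the 9 genes. It was 546, 557 and 530 CPM in PBS, 451 to 471 CPM at 15 min, 475 to 477 CPM at 30 min and 188, 181 and 187 CPM at 4 h. Its libraries lay below PBS at all 3 times, and it fell past the test at 4 h only, by 1.55 on the log2 scale (SE 0.027, adjusted p = 1.54e-20, edgeR).

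Bmx (chrX:164192842-164258193, minus strand) was 76.3, 81.1 and 81.9 CPM in PBS and 18.9, 20.5 and 20.2 CPM at 4 h. It fell by 2.00 on the log2 scale, which is 4.01-fold (SE 0.058, adjusted p = 7.92e-17, edgeR). At 15 min it was 61.5 to 66.4 CPM and at 30 min 60.2 to 65.3 CPM, both below every PBS library, with log2 fold changes of -0.31 and -0.33.

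Gkn3 (chr6:87383256-87388935, minus strand) had the largest fall. It was 148, 149 and 134 CPM in PBS, 172, 166 and 174 CPM at 15 min, 153, 155 and 150 CPM at 30 min and 22.4, 19.3 and 23.8 CPM at 4 h. The gene was above the PBS libraries at 15 and 30 min, by log2 0.25 and 0.09, and below all of them at 4 h. The fall at 4 h was 6.58-fold (log2 -2.72, SE 0.058, adjusted p = 2.67e-20, edgeR).

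Hey2 (chr10:30832359-30842801, minus strand), the Notch target, was 31.4, 31.3 and 33.0 CPM in PBS, 22.0, 21.7 and 20.4 CPM at 15 min, 25.0, 27.3 and 27.8 CPM at 30 min and 12.5, 11.7 and 14.2 CPM at 4 h. All libraries after LPS were below all PBS libraries. Among the 9 genes it had the largest early difference, a log2 fold change of -0.58 at 15 min (95% CI -0.72 to -0.44), whose interval spans the 1.5-fold limit of 0.58. At 4 h it fell by 1.32 on the log2 scale (SE 0.080, adjusted p = 3.51e-09, edgeR).

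Nr2f2 (chr7:70351944-70366735, minus strand), the venous transcription factor, was 96.7, 97.4 and 97.5 CPM in PBS, 90.9 to 92.4 CPM at 15 min, 95.3 ± 0.370 CPM (SD, n = 3) at 30 min and 65.8, 62.5 and 64.4 CPM at 4 h. The libraries at 4 h were below all others. The log2 fold change of -0.60 (95% CI -0.67 to -0.52) lay on the 1.5-fold limit and did not pass the test against it (adjusted p = 0.359, edgeR), while against no change the adjusted p was 1.10e-12. Nr2f2 was the member spread most widely over transcripts, with 56.7% of its TPM in PBS on Nr2f2-201 and 24.9% on the retained-intron transcript Nr2f2-203. B130024G19Rik overlaps it on the opposite strand.

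**Figure D3:**
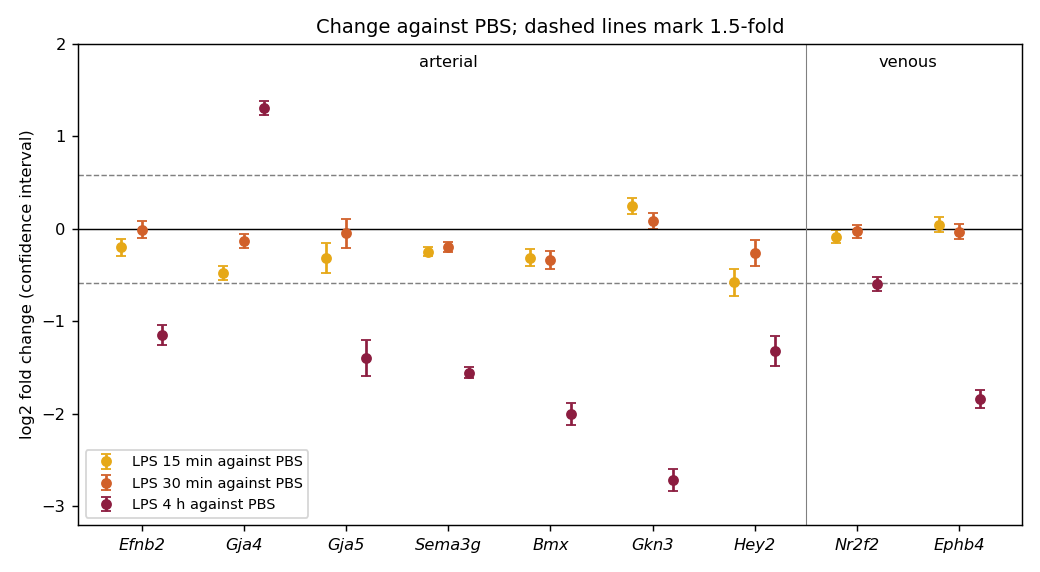
Log2 fold change against PBS (vertical axis) at each of the 3 times after LPS for each gene, with 95% confidence intervals of the fit across all 12 libraries. At 4 h, 7 genes lie below the 1.5-fold line, Nr2f2 lies on it and Gja4 lies above the upper line, and at 15 and 30 min the estimates lie between both lines.

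At the early times, no gene passed the test for a change beyond 1.5-fold. At 15 min, 0 of 9 genes passed, against 4.18% of all genes, and at 30 min 0 of 9, against 4.58%. Tested against no change instead, 8 of 9 genes differed at 15 min (38.6% of all genes), 7 lower and Gkn3 higher. The exception was Ephb4. At 30 min 4 of 9 differed in this way (36.9% of all genes), and these were Gja4, Sema3g, Bmx and Hey2, all lower. At 4 h all 9 did (68.5% of all genes). The libraries of both groups did not overlap for 8 of 9 genes at 15 min (49.3% of all genes), 6 of 9 at 30 min (46.7%) and 9 of 9 at 4 h (70.9%). Among markers of other cells, 3 of 6 smooth muscle, 2 of 6 fibroblast and 2 of 6 astrocyte markers had fallen at 15 min. So had 1 of 5 tested neutrophil markers, beside 0.872% of all genes. At the same time 2 of 6 neuron and 2 of 5 erythroid markers had risen, beside 3.31% of all genes. The summed level of the smooth muscle markers was 2309 to 2355 CPM at 15 min against 3414 to 3442 CPM in PBS. The part of these cells in the early values of the zonation genes was not tested.

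Neighboring times after LPS were compared directly. From 15 to 30 min, 0 of 9 genes passed (4.65% of all genes), with log2 fold changes between -0.16 for Gkn3 and 0.35 for Gja4. Against no change 5 of 9 differed (37.4% of all genes): Efnb2, Gja4, Gja5 and Hey2 were higher at 30 min than at 15 min, and Gkn3 was lower. From 30 min to 4 h, 8 of 9 genes passed (28.6% of all genes), 7 lower (11.8%) and Gja4 higher (16.9%). The log2 fold change was -2.81 for Gkn3, -1.81 for Ephb4, -1.67 for Bmx, -1.36 for Sema3g, -1.35 for Gja5, -1.14 for Efnb2, -1.06 for Hey2 and 1.43 for Gja4. Nr2f2 had a value of -0.57 (adjusted p = 0.776, edgeR). The libraries at 4 h and 30 min did not overlap for 9 of 9 genes (67.5% of all genes). The comparisons of 4 h with PBS and with 30 min share the 4 h libraries.

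The scaling of the libraries matters at 4 h. The TMM factors averaged 1.17 in PBS and 0.717 at 4 h, and without them, by library size alone, the median of all genes shifted by -0.71 at 4 h and by -0.17 at 30 min. On that scale Gja4 had a log2 fold change of 0.60 at 4 h and no longer passed (adjusted p = 0.230, edgeR), and Nr2f2 fell by 1.30. Relative to the summed endothelial markers, which shifted the median of all genes by 0.50, the log2 fold change of Efnb2 at 4 h was -0.63 and no longer passed (adjusted p = 0.140, edgeR), whereas the other 7 genes past the test at 4 h still passed. Nr2f2 had a log2 fold change of -0.09 on that scale and did not pass. Slc2a1, the endothelial marker with the highest level in PBS, had a mean of 2735 CPM there and 1324 CPM at 4 h. Of all genes called at 4 h, 58.0% were higher with TMM, 18.2% by library size alone and 86.7% relative to the endothelial markers.

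The order of the genes by length-scaled level changed with time. In PBS, in TPM, Gkn3 was highest with 369 ± 17.8 (SD, n = 3), followed by Sema3g with 194 ± 6.90, Gja4 with 116 ± 5.89, Ephb4 with 64.1 ± 3.07, Nr2f2 with 50.3 ± 1.67, Bmx with 45.3 ± 1.25, Efnb2 with 28.1 ± 1.24, Gja5 with 25.2 ± 3.02 and Hey2 with 21.4 ± 0.326. Efnb2 and Gja5 differed by less than the SD of Gja5, and the libraries of Gja5 and Hey2 overlapped. The other neighbors were apart. At 15 and 30 min the order of the means was that of PBS, with Gja5 at 20.7 ± 2.82 TPM overlapping Efnb2 at 24.3 ± 1.11 TPM at 15 min.

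At 4 h Gja4 was highest with 153 ± 1.92 TPM, then Sema3g with 34.9 ± 0.924, Gkn3 with 30.1 ± 3.17, Nr2f2 with 17.8 ± 1.40, Ephb4 with 9.44 ± 0.864, Efnb2 with 6.80 ± 0.136, Bmx with 6.05 ± 0.172, Gja5 with 5.48 ± 1.11 and Hey2 with 4.59 ± 0.466. Bmx and Gja5, and Gja5 and Hey2, did not differ beyond their spread. Gkn3 thus stood above Gja4 in PBS and below it at 4 h, and Ephb4 above Nr2f2 in PBS and below it at 4 h. TPM values sum to the same total in every library and carry no TMM scaling, so they order genes within a group and are not compared across groups.

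**Figure D4:**
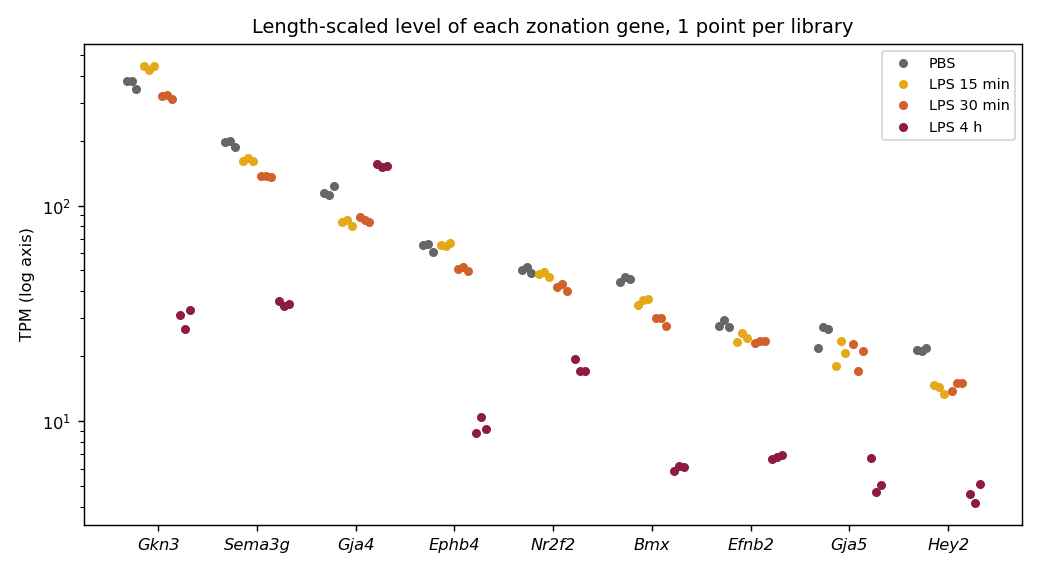
TPM of each zonation gene (logarithmic vertical axis), 1 point per library, with genes ordered by their PBS mean. Gkn3 is the highest gene in PBS at 348 to 380 TPM, and Gja4 is the highest at 4 h at 151 to 155 TPM.

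Related genes along the arteriovenous axis moved in both directions at 4 h. Of 17 other arterial endothelial genes 9 fell and 2 rose, with a median log2 fold change of -0.68. The largest falls were those of Eln (elastin), at -4.03, Sox17, an arterial transcription factor, at -3.52, and Hey1, the relative of Hey2, at -2.08. Tm4sf1, a membrane protein of endothelium, rose by 1.96 and Mgp, a matrix protein of arteries, by 0.94.

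Of 13 other venous endothelial genes 6 rose and 3 fell, with a median of 0.27. The risers were led by Ackr1, a chemokine receptor of venules, at 7.34 (from 9.64 to 1568 CPM), and by the leukocyte adhesion molecules Icam1, at 5.77, and Vcam1, at 4.35. Aplnr, the apelin receptor, fell by 5.01, the amino acid transporter gene Slc38a5 fell by 2.87 and Vwf, von Willebrand factor, fell by 0.71. This list had already moved at the early times. At 15 min 2 of the 13 genes had risen (Icam1 at 1.36 and Ackr1 at 1.03) and 2 had fallen. At 30 min 5 had risen and 1 had fallen, with Icam1 at 4.82, Ackr1 at 3.95 and Vcam1 at 2.92.

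Of 9 capillary endothelial genes 8 fell and 1 rose, with a median of -2.12. The transporter gene Slco1a4 fell by 3.30, the transporter gene Slc7a5 fell by 2.78, the chemokine gene Cxcl12 fell by 3.18, and Rgcc rose by 2.63. Of the 10 endothelial markers 5 fell and 2 rose, with a median of -0.82. Cldn5, the tight junction claudin, fell by 2.31 and Cdh5, VE-cadherin, rose by 1.96. The summed level of the 10 markers was 6931 to 6945 CPM at 4 h, below the 9779 to 10080 CPM of PBS.

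**Figure D5:**
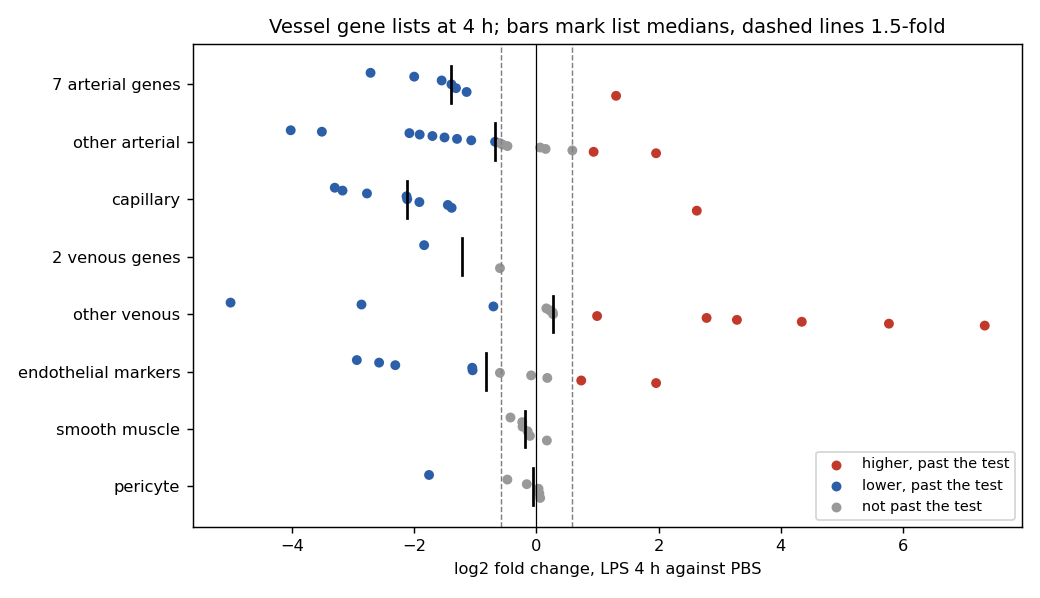
Log2 fold change at 4 h against PBS (horizontal axis) of each tested gene in 8 lists of vessel genes, colored by whether the gene passed the test; black bars are list medians and dashed lines mark 1.5-fold. The capillary list and the 7 arterial genes lie mostly below the lower line, the other venous genes spread to both sides, and none of the 6 smooth muscle markers passed.

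The markers of other cells moved as follows at 4 h. None of the 6 smooth muscle markers passed, with a median of -0.19, and their summed level was 3141 to 3219 CPM against 3414 to 3442 CPM in PBS. Of 6 pericyte markers 1 fell (Anpep), with a median of -0.06. All 5 tested neutrophil markers rose (S100a9 by 6.22), from a summed 2.10 to 2.79 CPM to 175 to 178 CPM, and Ly6g, the sixth, was at 0 in PBS and at most 0.599 CPM at 4 h. All 5 erythroid markers rose, to a summed 6941 to 7306 CPM from 2317 to 2492 CPM, and 3 of 5 choroid plexus markers rose, to 17599 to 18491 CPM. Of 6 fibroblast markers 3 fell, of 6 microglia markers 3 fell, of 6 astrocyte markers 2 rose and 1 fell, of 6 oligodendrocyte markers 2 fell, and of 6 neuron markers 1 fell. Their part in the changes of the zonation genes was not tested.

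The signals that set arterial and venous identity were also mixed. Of 23 such genes (among them genes of Notch and VEGF signaling and SoxF, Ets and Klf factors) 9 fell and 5 rose at 4 h, with a median of -0.34. The SoxF factor gene Sox18 fell by 4.36, the Notch ligand gene Jag2 fell by 2.54 and the VEGF receptor gene Kdr fell by 2.18, while the Ets factor genes Ets1 and Erg rose by 1.56 and 0.92 and the SoxF factor gene Sox7 rose by 1.41. At 15 min 2 of these 23 genes rose and 2 fell: the shear-responsive factors Klf2 and Klf4 rose by 1.79 and 1.57, while Heyl, a relative of Hey2, fell by 1.24 and Kdr fell by 0.79. At 30 min 3 rose and 2 fell, with Klf2 at 1.64 and Heyl at -1.21. Among the 17 other arterial genes at 30 min 1 rose and 2 fell, with a median of -0.14. The Notch ligand gene Dll4 rose by 0.72, while Vegfc and Unc5b fell, at -0.83 and -0.74.

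Relatives of the 9 genes by gene family moved in both directions. Of 20 Eph receptor and ephrin relatives 6 fell and 2 rose at 4 h, with a median of -0.23. The receptor gene Epha2 rose by 0.78 at 15 min, 1.56 at 30 min and 1.78 at 4 h, and the ligand gene Efna1 fell by 1.12 at 30 min and fell by 2.10 at 4 h. Efnb1, a relative of Efnb2, fell by 1.21 at 4 h. Of 18 connexin relatives 8 were tested, and 2 rose and 2 fell at 4 h. Gja1, connexin 43, rose by 2.81, from 74.6 to 522 CPM, in the direction of Gja4, and Gjb6 fell by 1.25.

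Of 11 class 3 semaphorins and plexins 1 rose at 4 h (Plxna2, a semaphorin co-receptor, by 2.15) and none fell, whereas Sema3g fell. Of 4 Tec kinase relatives of Bmx 3 were tested, and 2 rose and none fell at 4 h, with a median of 1.14, whereas Bmx fell. Neither riser reached the mean count of 50 set for naming. The summed level of the 4 relatives hardly differed, at 23.7 to 25.7 CPM in PBS and 23.6 to 26.4 CPM at 4 h. The gastrokine relatives of Gkn3 were not tested, with summed levels between 0 and 0.0382 CPM.

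The genes with the time course most like that of each member were found among 16297 genes of at least 1 CPM, by the root mean square difference of log2 CPM, each minus its PBS mean, over the 12 libraries. The nearest to Efnb2 were Mindy1 (0.065) and Ptn (0.067), and to Ephb4 Fam89b (0.079) and Dixdc1 (0.087). Nr2f2 lay near Pink1 (0.042) and Tpi1 (0.042), and Sema3g near Slc19a1 (0.050) and Anp32a (0.053). For Bmx they were Mapk3 (0.069) and Itpr3 (0.072), for Hey2 Olfml3 (0.088) and Ptgis (0.092), and for Gja5 Plekhg3 (0.12) and Rcn3 (0.12). For Gja4 they were Plek2 (0.10) and Stn1 (0.11), and for Gkn3 Trim65 (0.11) and Cbfa2t3 (0.13). No other member was allowed as a neighbor, and the measure is a description of these libraries.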

How the data were processed

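Cerebral vessel RNA was sequenced as paired-end, unstranded cDNA in 12 libraries. The authors quantified it with Salmon 1.2.1 against GRCm38.p6 and deposited, for each library, estimated counts and TPM per transcript. They also deposited a gene table of DESeq2-normalized counts, a signal already divided by size factors, which was used for alternatives only.

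Transcripts were joined to GENCODE genes by identifier (139852 of 140948, the rest holding 0.482 to 0.850% of fragments), and the estimated counts as deposited were summed and rounded per gene. In edgeR 4.0.16 (R 4.3.3), genes passing filterByExpr (minimum count 10) entered 1 quasi-likelihood fit of all 12 libraries with group as the only term and TMM scaling. The glmTreat test, two-sided, used a limit of 1.5-fold with Benjamini-Hochberg adjustment at 0.05. It was also run on simulated data. Far fewer genes changed there than in the 4 h libraries, so that run does not check the scaling at 4 h. Alternatives used DESeq2 1.42.0, limma 3.58.1, other scalings, filters and libraries left out. Promoters came from RefSeq.

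The 9 genes and the gene lists were chosen with earlier results of these data known. Within lists, up to 3 genes with the largest rise and fall and a mean count of at least 50 were named, and for each member the 2 nearest genes. The lowest count of any of the 9 genes in a library was 162 (Hey2 at 4 h). Some list genes are not reported here.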

Additional observations from a re-analysis of the deposited data

Results flagged for a closer look

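The response to LPS differed between time points for 8 of the 9 genes, by the direct test of 4 h against 30 min (edgeR, beyond 1.5-fold). Of all genes tested, 28.6% passed this test. The log2 differences were -2.81 for Gkn3, -1.81 for Ephb4, -1.67 for Bmx, -1.36 for Sema3g, -1.35 for Gja5, -1.14 for Efnb2 and -1.06 for Hey2, and 1.43 for Gja4. The smallest adjusted p was 1.64e-20 (Gkn3) and the largest 4.11e-06 (Hey2), and all 3 libraries at 4 h lay on 1 side of all 3 libraries at 30 min for each of the 8, as they did for 67.5% of all genes tested. Relative to the endothelial markers 5 of these 8 still passed, 1 higher and 4 lower. Beside them 8712 of all 19150 genes passed, 8107 higher and 605 lower. The marker sum was 11434 to 11450 CPM at 30 min and 6931 to 6945 CPM at 4 h. Within it the marker Slc2a1 had a mean of 5514 CPM at 30 min and 1324 CPM at 4 h, and its part in this scaling was not tested. With TMM, none of the 9 genes passed the direct test of 30 against 15 min, beside 4.65% of all genes. Groups of 3 libraries are too small for a search for single outlying libraries.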

How the results depend on the processing

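At 4 h against PBS, 8 genes passed under TMM (6273 of all 19150 genes) and between 7 and 9 under the alternatives run. The number was 7 relative to the endothelial markers (7815 of all genes) and 9 with no fold limit (13124 of all genes). By library size alone the 8 included Nr2f2 in place of Gja4. Leaving out each library in turn changed no call, and 266 of 270 gene values kept their sign. The replicate numbers did not pair the libraries, since same-numbered libraries deviated from their group means with correlations of -0.049 to 0.068 over 18 pairs. With the replicate block 8 genes passed at 4 h and 0 at 15 and 30 min, as without it. Of all 19150 genes 6235 passed at 4 h in that fit, 776 at 15 min and 856 at 30 min. With no fold limit, 8 genes passed at 15 min, 4 at 30 min and 5 from 15 to 30 min, and of all genes 7393, 7066 and 13124 passed at the 3 times in turn, against 800, 877 and 6273 beyond 1.5-fold. Relative to the endothelial markers 5 genes passed from 30 min to 4 h, where Efnb2 (-0.41), Gja5 (-0.62) and Hey2 (-0.34) did not, and 8712 of all genes passed against 5484. By library size alone 10462 genes passed at 4 h and 8848 from 30 min to 4 h. With limma on the normalized counts, 399 genes passed at 15 min and 534 at 30 min. The cause was not tested.

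Signs turned for values near 0 and for Nr2f2 from 30 min to 4 h, which was -0.57 with TMM. By library size Gkn3 was -0.0756 at 30 min, and from 15 to 30 min Sema3g was -0.0908 and Nr2f2 -0.0831. Relative to the endothelial markers Ephb4 was -0.0296 at 15 min, Gkn3 -0.122 at 30 min, Sema3g -0.0872 and Nr2f2 -0.0796 from 15 to 30 min, and Nr2f2 0.151 from 30 min to 4 h. At 30 min Efnb2 and Nr2f2 were 0.0293 and 0.0259 with a transcript length offset, 0.0173 and 0.0134 with limma and a pseudocount of 1, with or without a filter, and 0.0172 and 0.0134 with 10. With 1 library left out, Efnb2 at 30 min ranged from -0.0346 to 0.0267 and Gja5 from -0.102 to 0.0126, and Bmx from 15 to 30 min ranged from -0.0603 to 0.00827.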
